A study of Rattus norvegicus with 6 samples.

Results

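Collagens are the structural proteins of the extracellular matrix, and the genes of their chains were followed here in rat gastrocnemius, the large calf muscle, under 3 diets. Members were all transcript clusters (the array's units of measurement) that the platform annotation assigns to a single gene with a symbol made of Col, a number, the letter a and a number. Where a symbol had several clusters, the one with the highest mean over all arrays was kept. This gave 25 collagen genes from 27 clusters, out of 14506 genes tested. RefSeq's rat annotation names 44 genes by this pattern, and the other 19, among them Col4a2, Col6a1, Col6a2, Col6a3, Col15a1 and Col18a1, were not analysed here.

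Every collagen molecule is a trimer of chains wound into a triple helix. The fibrillar types I, III and V build the load-bearing fibrils of tendon and of the sheaths around muscle fibres, mostly made by fibroblasts. Type IV forms the sheet of the basement membrane around each muscle fibre and capillary, and the fibril-associated types such as XII and XIV decorate the surface of fibrils.

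RNA came from male Sprague-Dawley rats made obese by diet, and was hybridised to the Rat Gene 1.0 ST array of Affymetrix, whose probes are spread over the full length of each transcript. The rats were 12 weeks old at the start and 20 weeks old at the end of 8 weeks on high-fat, high-sucrose food eaten at will, with 4.6 kcal/g and 10% of the energy from protein in every group. That protein was casein in the control diet, complete dairy protein (skim milk powder) in the dairy diet, and in the leucine diet casein for 7.1% of the energy with leucine for the other 2.9%. Each diet has 2 arrays here, 6 in total, although the description of the design speaks of 4 rats in each group. Nothing in the labels ties an array to a single rat or to a pool, so the spread and the p-values describe these samples and may be partly technical. The comparisons ask how the source of dietary protein relates to muscle gene expression.

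Signals are deposited log2 values, so a difference of 1 is a doubling. The median of all clusters lay between 3.46 and 3.56 on the 6 arrays, and the median of the 14506 gene means was 4.15, called the median gene below. Fast-fibre markers, which define most of this muscle, had median levels from 12.3 to 12.8 per array. Casein array 2 stood apart: its mean correlation with the other arrays was 0.974, against 0.985 to 0.988 for the rest. On it slow-fibre markers had a median of 5.74, against 9.91 to 10.4 elsewhere, and hepatocyte markers one of 6.25, against 3.30 to 4.70. Comparisons with casein are therefore given with this array and, for the genes and lists described, also without it. The hepatocyte median was uneven on the other arrays too. It was 4.50 on casein array 1 and 4.70 on leucine array 2, but 3.37 on leucine array 1. On dairy arrays 1 and 2 it was 4.06 and 3.30. Leaving out casein array 2 does not remove these differences.

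Of the 25 collagen genes, 13 had a mean above the median gene: Col1a1, Col1a2, Col3a1, Col5a1, Col5a2, Col5a3, Col11a2, Col4a1, Col4a3, Col9a2, Col12a1, Col14a1 and Col16a1. The other 12 lay at or below it, and no filter on low values was applied, so all 25 entered every test. Some values were repeated to the last deposited decimal. Col4a4 read 3.99 on all 6 arrays, which was so for 0.855% of all genes, and Col7a1 and Col11a1 each had 1 value shared by 4 arrays. For such genes the differences between diets rest on the remaining arrays.

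**Figure D1:**
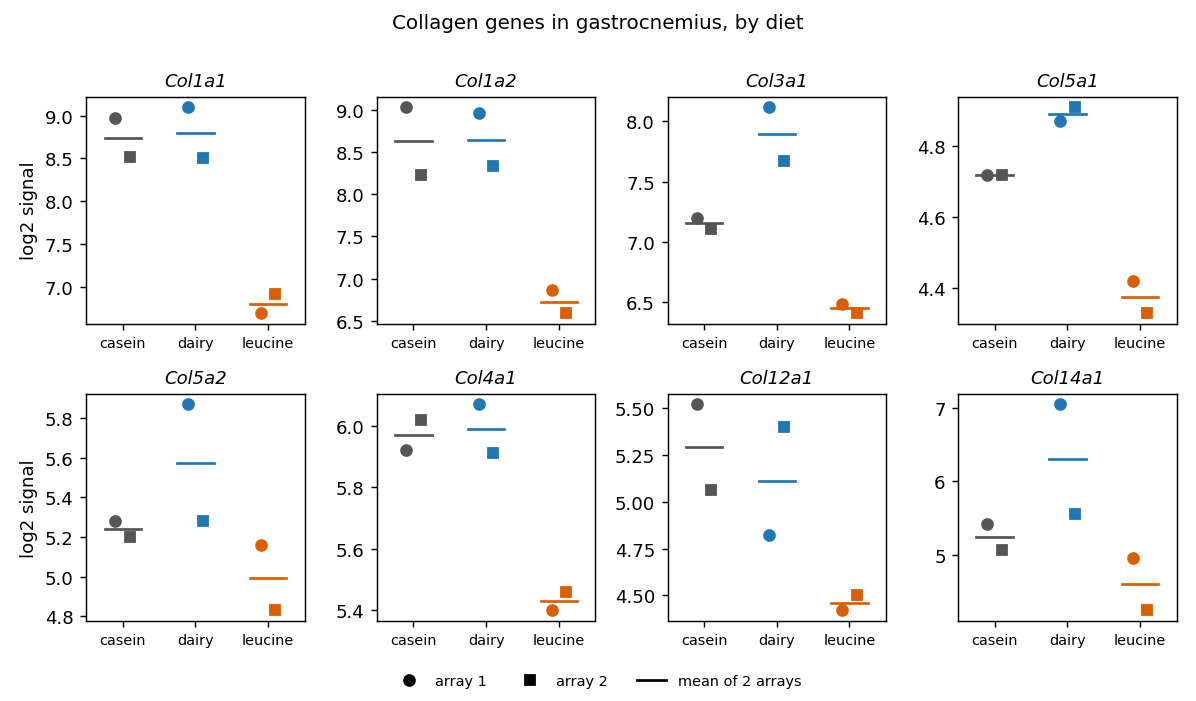
Log2 signal (vertical axis, its own scale in each panel) of 8 collagen genes on the 2 arrays of each diet (circle, array 1; square, array 2), with the bar at the mean of the 2. In every panel both leucine arrays lie below both casein and both dairy arrays, and dairy array 1 is the highest of all arrays for Col14a1, at 7.05.

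The first comparison set leucine against casein. Most collagen genes had lower means with leucine: 24 of 25 did, Col4a4 being the exception with its identical values, while 49.1% of all genes were lower and 48.5% higher. The largest differences were in both chains of type I collagen, Col1a1 and Col1a2, followed by Col12a1, Col3a1, Col14a1 and Col4a1. The median log2 fold change over the 25 genes was −0.33, beside 0 over all genes, and it was −0.35 without casein array 2. In 17 collagen genes both leucine arrays lay below both casein arrays, or 68.0% of them, against 15.6% of all genes. With casein array 2 left out, leaving 1 casein array, these shares were 92.0% and 31.4%. In no collagen gene did both lie above, as they did in 15.9% of all genes. The members were chosen with earlier results of these data known, so these counts describe them and are no independent test.

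No collagen gene passed an adjusted p of 0.05 in limma (Benjamini-Hochberg over 14506 genes), and neither did any other gene, a share of 0%. The lowest adjusted p among the collagens was 0.353. At an unadjusted p under 0.05 limma counted 12 collagen genes, all lower, or 48.0%, while 4.85% of all genes were lower at that level, 4.76% higher and 9.61% either. That count was 12 without casein array 2, when 6.96% of all genes were lower at that level, and 7 without leucine array 1, when 4.45% were. The count of lower means was 23 after quantile normalization or a shift to a common median, where Col17a1 turned. With 2 arrays against 2, an exact permutation test of a single gene cannot give a two-sided p below 0.333, so none was run.

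Col1a1 encodes the chain present in duplicate in each type I molecule, the main collagen of tendon and of connective tissue. It read 8.97 and 8.51 with casein, 9.10 and 8.50 with dairy, and 6.69 and 6.91 with leucine. The leucine arrays were the lowest, well clear of the other 4, and casein and dairy overlapped. The log2 fold change against casein was −1.94 ± 0.27 (SE, n = 2 arrays each), or 3.84-fold lower, and −2.17 without casein array 2.

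Col1a2, the partner chain of the same molecule, read 9.03 and 8.22 with casein, 8.96 and 8.33 with dairy, and 6.86 and 6.59 with leucine. Its log2 fold change against casein was −1.90 ± 0.36, or 3.73-fold lower, and −2.30 without casein array 2. The log2 signal of Col1a1 minus that of Col1a2 stayed between −0.17 and 0.32 on the 6 arrays, so the step between leucine and the other diets was of similar size in both chains. The extremes of that difference were the 2 leucine arrays, where Col1a1 was higher on array 2 and Col1a2 on array 1.

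Col3a1 encodes the only chain of type III collagen, which forms thinner fibrils together with type I. It read 7.20 and 7.11 with casein, 8.12 and 7.67 with dairy, and 6.49 and 6.41 with leucine. All 3 diets were separated, in the order dairy, casein, leucine. Against casein the leucine log2 fold change was −0.70 ± 0.17, or 1.63-fold lower, and −0.75 without casein array 2. The log2 signal of Col3a1 minus that of Col1a1 was −1.77 and −1.40 with casein, −0.98 and −0.83 with dairy, and −0.19 and −0.50 with leucine, so the 2 genes differed between diets by unequal amounts.

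Type V collagen sits inside type I fibrils and sets their diameter. Its chain Col5a1 read 4.72 on both casein arrays, 4.87 and 4.91 with dairy, and 4.42 and 4.33 with leucine. The diets did not overlap, although the steps were small, with a leucine log2 fold change of −0.35 ± 0.06 against casein, the same without casein array 2. The partner Col5a2 read 5.28 and 5.20 with casein, 5.87 and 5.28 with dairy, and 5.16 and 4.83 with leucine, a log2 fold change of −0.25 ± 0.23 whose 95% interval ran from −0.88 to 0.39 and which was −0.08 without leucine array 2. The third type V chain, Col5a3, overlapped between leucine and casein at −0.19 ± 0.11, or −0.07 without casein array 2. Col5a2 and Col3a1 are neighbours on rat chromosome 9, and in both the order of the diet means was dairy, casein, leucine.

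Sequence upstream of the transcription start was looked up in RefSeq (build GRCr8), which held an entry for 20 of the 25 genes. The stretches below show a type I chain and the basement membrane gene Col4a1, both among the genes with the clearest leucine difference, and a pair of type V chains, of which Col5a2 varied more within a diet. Those of Col5a1 and Col5a2 were chosen after their values were seen. Capitals mark matches on either strand to CCAAT (the CCAAT box), GGGCGG (the GC box), TATAAA (the TATA box) and GTCTGNNT, a motif with the SMAD core GTCT. The first is the 250 bases before the RefSeq start of Col1a2, chr4:33518307-33518556, plus strand, where the start used in this muscle was not measured, followed by those of Col5a1, chr3:31606630-31606879, plus strand, and of Col5a2, chr9:55090152-55090401, minus strand.
Col1a2: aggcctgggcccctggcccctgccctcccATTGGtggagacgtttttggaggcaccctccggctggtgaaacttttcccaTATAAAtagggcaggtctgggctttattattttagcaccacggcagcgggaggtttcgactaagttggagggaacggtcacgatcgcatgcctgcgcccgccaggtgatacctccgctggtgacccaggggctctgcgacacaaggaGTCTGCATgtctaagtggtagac
Col5a1: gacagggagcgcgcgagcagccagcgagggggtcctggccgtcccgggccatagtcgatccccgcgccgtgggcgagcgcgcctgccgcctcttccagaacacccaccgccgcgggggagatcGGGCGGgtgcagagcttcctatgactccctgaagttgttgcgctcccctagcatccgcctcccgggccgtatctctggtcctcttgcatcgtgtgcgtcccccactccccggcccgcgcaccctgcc
Col5a2: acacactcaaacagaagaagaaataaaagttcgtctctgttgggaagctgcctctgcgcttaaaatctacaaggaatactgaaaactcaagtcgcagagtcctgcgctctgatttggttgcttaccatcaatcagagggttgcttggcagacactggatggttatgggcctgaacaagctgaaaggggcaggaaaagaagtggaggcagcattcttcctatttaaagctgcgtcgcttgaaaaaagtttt
The last, chr16:84885521-84885596, read on the plus strand toward Col4a1, is the whole gap of 76 bases between the starts of Col4a1 and Col4a2, which are transcribed away from each other.
Col4a1 and Col4a2 gap: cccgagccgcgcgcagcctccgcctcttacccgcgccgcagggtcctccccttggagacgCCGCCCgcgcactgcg
In the Col1a2 stretch CCAAT lay on the opposite strand with its far end 221 bases before the start, TATAAA 170 bases and GTCTGNNT 23 bases before it. A TATA box usually lies much nearer to the start than this, so transcription may begin upstream of the RefSeq start, part of the stretch may be transcribed, and the distances hold for the RefSeq start alone. Col5a2 held none of the 4 motifs in this window and 44.8% G and C, against 71.6% in Col5a1 and 78.9% in the gap between Col4a1 and Col4a2, the latter 2 with a GC box each. Among the 20 collagen genes with an entry, 7 held CCAAT in the 250 bases (35.0%, against 34.0% of 33469 promoters), 11 held GGGCGG (55.0% against 30.5%), 4 held TATAAA (20.0% against 12.9%) and 4 held GTCTGNNT (20.0% against 14.1%). A match describes these letters and was not tied to any factor here.

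Col4a1 encodes a chain of the basement membrane collagen found in almost every tissue. It read 5.92 and 6.02 with casein, 6.07 and 5.91 with dairy, and 5.40 and 5.46 with leucine. Replicates lay close together, leucine was clear of the other diets, and the log2 fold change against casein was −0.54 ± 0.09, or 1.45-fold lower, and −0.49 without casein array 2. Col4a3 and Col4a4, chains of the specialised basement membranes of kidney and lung, showed no such step: Col4a3 overlapped between leucine and casein at −0.13 ± 0.10, from −0.24 without casein array 2 to −0.01 without casein array 1, and Col4a4 did not vary.

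Among the fibril-associated chains, Col12a1, the type XII chain that is abundant in tendon and fascia, read 5.52 and 5.06 with casein, 4.82 and 5.40 with dairy, and 4.42 and 4.50 with leucine. It was lowest with leucine and mixed between the other diets, with a log2 fold change of −0.83 ± 0.26 against casein, or −1.06 without casein array 2. Col14a1, the type XIV chain, read 5.42 and 5.07 with casein, 7.05 and 5.55 with dairy, and 4.96 and 4.24 with leucine. Its arrays within a diet were far apart, so the difference of −0.64 ± 0.58 from casein had an interval from −2.20 to 0.92 and was −0.82 without casein array 2, −1.0 without leucine array 1 and −0.28 without leucine array 2. Col16a1, a minor fibril-associated chain, read 4.42 and 4.36 with casein, 4.16 on both dairy arrays, and 4.06 and 4.07 with leucine, at −0.32 ± 0.06, or −0.35 without casein array 2.

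Types II, IX and XI make the fibrils of cartilage, which a muscle sample should hardly contain. Cartilage markers were low: 6 were measured, none above the median gene, and their median level stayed between 2.58 and 2.68 on the 6 arrays. Col11a2, which is also made outside cartilage, read 5.10 and 5.07 with casein, 4.55 and 4.83 with dairy, and 4.56 and 4.70 with leucine, at −0.45 ± 0.12 for leucine against casein, or −0.46 without casein array 2. Col9a1 stood at −0.18 ± 0.06, or −0.19 without casein array 2. Col2a1 stood at −0.28 ± 0.11, which was −0.15 without casein array 2 and −0.42 without casein array 1. Like Col2a1, the chains Col9a2 and Col11a1 depended on single arrays. Col9a2 stood at −0.28 ± 0.22, which was −0.53 without casein array 2, −0.03 without casein array 1 and −0.08 without leucine array 1. Col11a1 stood at −0.35 ± 0.19, which was −0.48 without casein array 2 and −0.12 without leucine array 1. Col27a1, a fibrillar chain of developing cartilage, stood at −0.39 ± 0.13, or −0.53 without casein array 2.

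The remaining 7 genes all lay at or below the median gene. Col7a1, the anchoring fibril chain of skin, read 4.16 and 4.20 with casein and 3.86 on all 4 other arrays, and so stood at −0.32 for leucine and for dairy alike, or −0.30 without casein array 2. Col6a4, a relative of the type VI chains, read 3.55 on both casein arrays and 3.20 and 3.28 with leucine, at −0.31 ± 0.06 with casein array 2 or without it. It had 3 clusters on the array, and the other clusters averaged 2.74 and 2.21 with no comparable step. Col8a1, Col10a1, Col13a1, Col17a1 and Col23a1 had log2 fold changes from −0.39 to −0.03, each with a 95% interval that included 0, and from −0.58 to −0.03 without casein array 2. Col23a1 changed sign without leucine array 1. Dim genes as a whole leaned the same way, since 56.8% of all genes at or below the median gene were lower with leucine, against 41.3% above it. Above the median gene 13 of 13 collagen genes were lower with a median of −0.45, while all such genes had a median of 0.05. The level of a gene is its mean over all 6 arrays, so this split is not independent of the diet differences. Col16a1, with a mean of 4.21 beside 4.15 for the median gene, read 4.42 and 4.36 with casein but 4.06 and 4.07 with leucine.

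**Figure D2:**
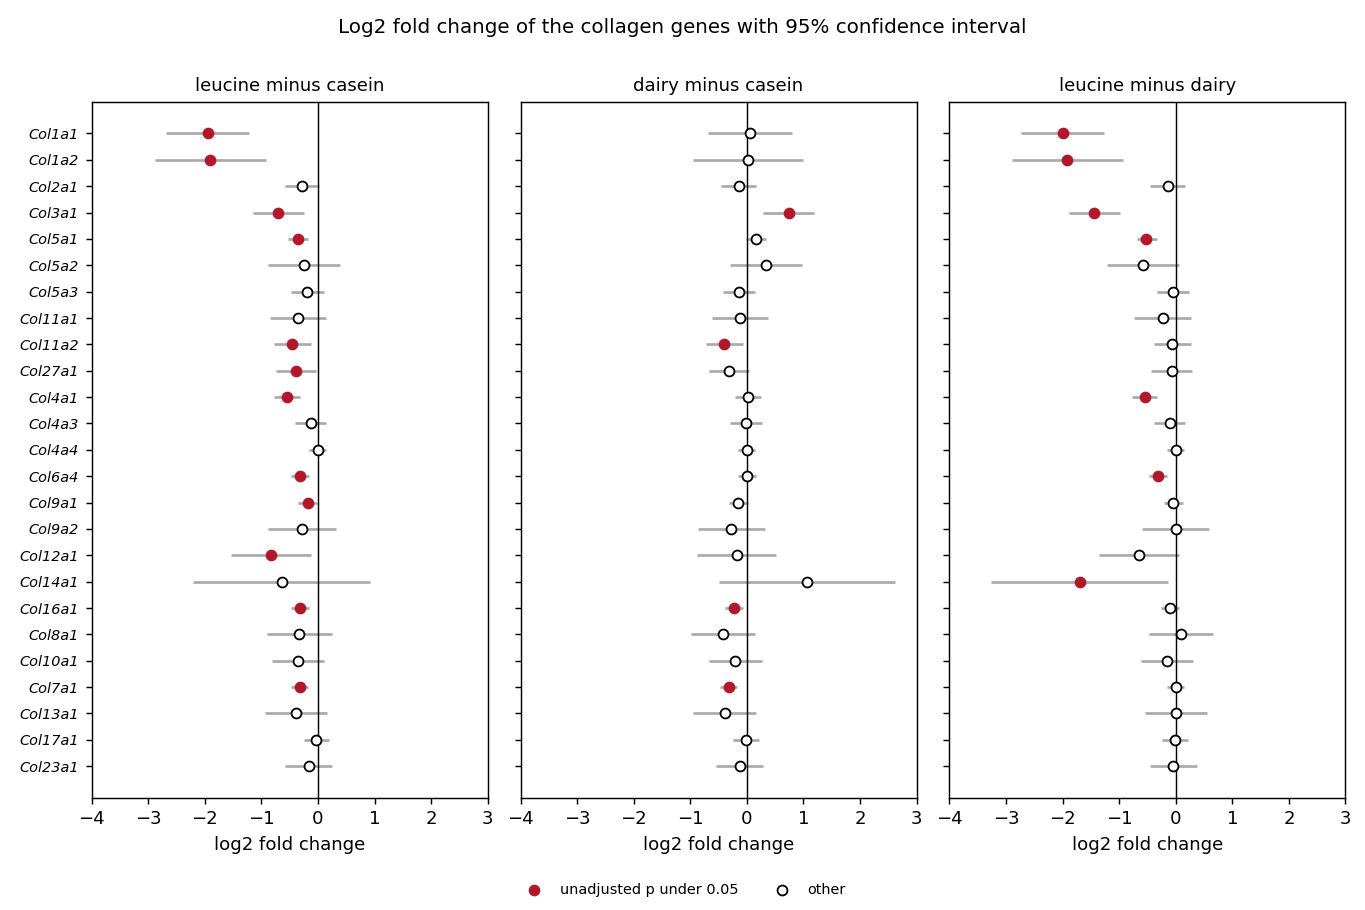
Log2 fold change (horizontal axis) of each of the 25 collagen genes in the 3 comparisons, with the 95% confidence interval from limma; filled points have an unadjusted p under 0.05. On the left every point except Col4a4 lies below 0 and both type I chains lie near −1.9, whereas in the middle Col3a1 at 0.74 is the only filled point above 0.

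The second comparison set dairy against casein. Here the collagens did not move together. Col3a1 was higher with dairy, and Col14a1 and the type V chains Col5a1 and Col5a2 also lay above casein on both arrays. For Col5a2 the gap was below the printed decimals, since dairy array 2 and casein array 1 both read 5.28. The type I pair and Col4a1 overlapped between the diets, and most dim chains lay below. In all, 8 collagen genes had a higher mean (32.0%, against 50.6% of all genes) and 16 a lower one (64.0%, against 46.3%). Their median was −0.12, which became −0.17 when casein array 2 was left out and −0.02 when casein array 1 was. In 8 genes (32.0%) the dairy arrays were all lower and in 4 (16.0%) all higher, where 11.7% and 11.5% of all genes were separated in those directions. Without casein array 2, which leaves 1 casein array and so an easier criterion, 56.0% of the collagen genes and 26.7% of all genes were separated below casein.

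In limma 0 collagen genes and 0% of all genes passed the adjusted threshold, and the lowest adjusted p among collagens was 0.833. Unadjusted, 3 were lower (Col11a2, Col16a1 and Col7a1) and 1 was higher (Col3a1), or 12.0% and 4.0%, beside 2.31% and 2.49% of all genes, 4.8% together. Level mattered for the background: of all genes at or below the median gene 63.8% were lower with dairy, and of those above it 28.9%. Set against these shares, 10 of 12 dim collagen genes and 6 of 13 bright ones were lower. Both dairy arrays lay below both casein arrays in 5 of the 12, against 18.5% of all genes of that level, and in 3 of the 13, against 4.81%.

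Col3a1 was 1.67-fold higher with dairy, at 0.74 ± 0.17, and 0.69 without casein array 2. Col14a1 stood at 1.06 ± 0.58, which was 0.88 without casein array 2, 0.31 without dairy array 1 and 1.80 without dairy array 2. Col5a2 stood at 0.33 ± 0.23 and rested on the same array, at 0.04 without dairy array 1 and 0.29 without casein array 2. Col5a1 stood at 0.17 ± 0.06 and changed little with any array, from 0.14 to 0.19.

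The type I pair had intervals too wide to show that dairy and casein were alike. Col1a1 stood at 0.06 ± 0.27, with an interval from −0.68 to 0.79, and Col1a2 at 0.02 ± 0.36, with an interval from −0.96 to 1.00. Both turned negative without casein array 2, at −0.17 and −0.38, and after quantile normalization, at −0.05 and −0.10. Col4a1 was better determined at 0.02 ± 0.09, with an interval from −0.21 to 0.25, was 0.07 without casein array 2 and −0.09 after quantile normalization. On the lower side Col11a2 stood at −0.40 ± 0.12, Col16a1 at −0.22 ± 0.06 and Col8a1, a chain of vessel walls and of the cornea, at −0.42 ± 0.21. Without casein array 2 they stood at −0.41, −0.25 and −0.61.

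The third comparison set leucine against dairy, and it uses the arrays of both earlier comparisons again. All 10 fibrillar and all 5 fibril-associated genes had a lower mean with leucine, with type I, Col14a1 and Col3a1 furthest apart, and so had 3 of the 6 network, anchoring and transmembrane chains. In all, 21 of 25 had a lower mean with leucine, against 48.5% of all genes, and 2, Col8a1 and Col13a1, a higher one, as had 48.4% of all genes. After quantile normalization 16 were lower and after a shift to a common median 15, the genes that turned being Col5a3, Col11a2, Col9a1, Col9a2 and Col23a1, and under the shift also Col17a1. Above the median gene 13 of 13 were lower, where 56.1% of all such genes were, and their median was −0.55 beside −0.03. At or below it 8 of 12 were lower, where 40.8% of all such genes were, and their median was −0.04. The median over all 25 was −0.11, and −0.17 without dairy array 1 or without leucine array 2.

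Both leucine arrays lay below both dairy arrays in 13 collagen genes (52.0%), against 14.9% of all genes, and in none above, against 13.4%. The adjusted threshold of limma was again passed by 0 collagen genes and 0% of all genes, and the smallest adjusted p of a collagen gene was 0.514. Unadjusted, 7 were lower (28.0%), where 3.45% of all genes were: Col1a1, Col1a2, Col3a1, Col5a1, Col4a1, Col6a4 and Col14a1. None was higher, where 2.25% of all genes were, and 5.7% were called in either direction.

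Col3a1 had the smallest unadjusted p of the collagens in any comparison, 0.000689 in limma, at −1.44 ± 0.17 or 2.71-fold lower with leucine. Col1a1 was 4.00-fold lower (−2.00 ± 0.27) and Col1a2 3.78-fold lower (−1.92 ± 0.36). Col14a1 stood at −1.70 ± 0.58, or −0.95 without dairy array 1. Col5a1 stood at −0.52 ± 0.06, Col4a1 at −0.55 ± 0.09 and Col5a2 at −0.58 ± 0.23, or −0.29 without dairy array 1. Col9a2, Col13a1, Col7a1 and Col4a4 had fold changes that rounded to 0.

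**Figure D3:**
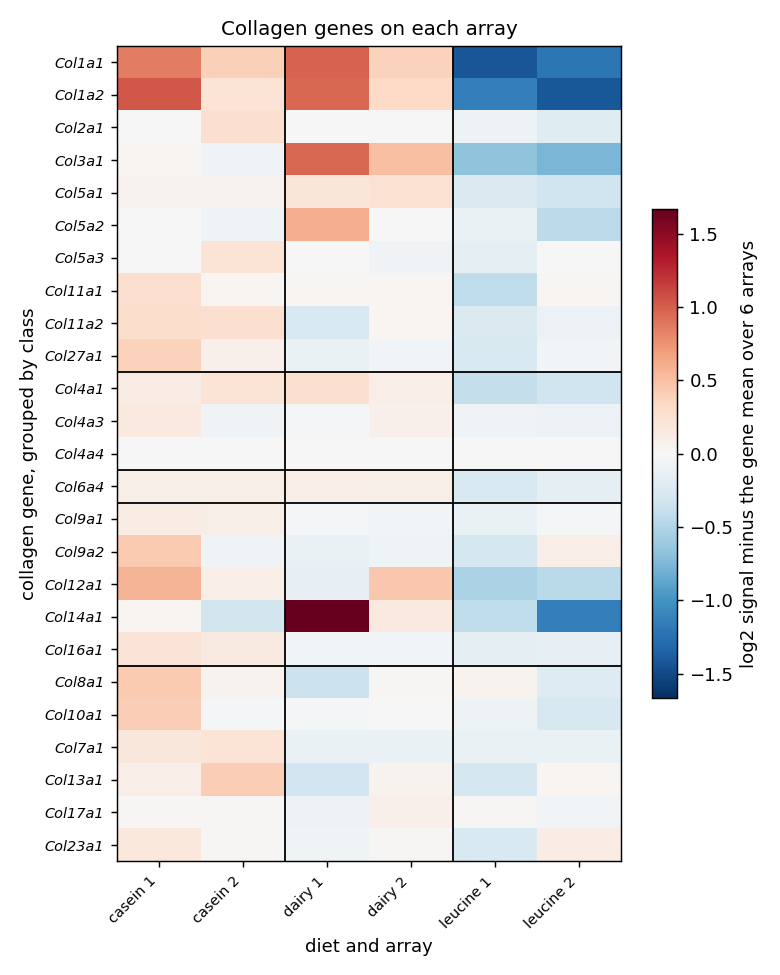
Log2 signal minus the gene's mean over the 6 arrays (colour) for the 25 collagen genes, ordered by class and divided by horizontal lines into fibrillar, basement membrane, type VI relative, fibril-associated and other chains. Both leucine arrays are blue for the type I chains and Col3a1, casein array 1 holds the highest value of 12 genes, and dairy array 1 holds the single largest departure, 1.67 for Col14a1.

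Across the 3 diets, 21 of 25 collagen genes had their lowest mean with leucine, or 84.0%, where 32.7% of all genes did, and none had it with casein, where 34.7% did. In 8 of them dairy had the highest mean, an order found in 14.4% of all genes, and in 13 casein did, an order found in 18.3%. Among the 8, dairy and casein were separated in Col3a1, Col5a1, Col5a2 and Col14a1, though in Col5a2 by less than the printed decimals. In Col1a1, Col1a2, Col4a1 and Col6a4 dairy exceeded casein by 0.06 or less, and each of these changed sign under an alternative (quantile normalization for the first 3, the mean of all clusters for Col6a4), so their order is not settled. The moderated F test of limma over all diets called 0 genes at an adjusted p of 0.05, 0% of the table, and 9 collagen genes at an unadjusted p under 0.05, against 7.25% of all genes. The lowest adjusted F p among the collagens was 0.530. By array, 19 of the 24 collagen genes that varied had their lowest value on a leucine array, 11 on leucine array 1 and 8 on leucine array 2. Another 4 had it on dairy array 1, and in Col7a1 it was shared by all dairy and leucine arrays.

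Other genes of the collagen pathway were taken from lists chosen like the members with earlier results known. Their counts for leucine against casein stand beside 49.1% of all genes lower and 4.85% lower at an unadjusted p under 0.05. Those for collagen export, processing and cross-linking, called processing genes below, were mostly lower too. The list also holds export genes that act inside the cell, such as Sec13 and Sar1b, and the regulators Creb3l1 and Creb3l2. With leucine 17 of 18 measured were lower than with casein, 6 of them, Creb3l1 included, at an unadjusted p under 0.05. Their median was −0.18, or −0.13 with 13 lower without casein array 2. Pcolce, which enhances the cleavage of the procollagen end, read 6.48 and 6.51 with casein, 6.79 and 6.45 with dairy, and 5.50 and 5.72 with leucine. It stood at −0.89 ± 0.15 against casein. Lox, the enzyme that starts cross-linking, stood at −0.58 ± 0.13 and its relative Loxl1 at −0.41 ± 0.12, while the collagen-binding protein gene Sparc stood at −0.72 ± 0.17. Without casein array 2 Pcolce stood at −0.87, Lox at −0.55, Loxl1 at −0.50 and Sparc at −0.57. Bmp1, the protease that cuts the end, stood at −0.11 ± 0.15, or 0.04 without that array.

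Enzymes that fold and modify chains inside the cell were divided. Of 21 measured 15 were lower and 6 higher with leucine, none at an unadjusted p under 0.05, with a median of −0.11 that became 0.01, with 10 lower, without casein array 2. Fkbp10, a collagen chaperone, stood at −0.43 ± 0.17, or −0.23 without casein array 2. Serpinh1, the collagen-specific chaperone HSP47, stood at −0.27 ± 0.33, or 0.01 without it. Whether the folding and processing lists differ from each other was not tested.

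On the side of turnover, 14 of 16 genes for collagen breakdown and its inhibitors were lower with leucine than with casein, 2 of them at an unadjusted p under 0.05. The median was −0.18, and without casein array 2 it was −0.09 with 12 lower. The gelatinase gene Mmp2 read 7.05 on both casein arrays, 7.52 and 7.17 with dairy, and 6.21 and 6.03 with leucine, and stood at −0.93 ± 0.14 against casein with casein array 2 or without it. Timp2, an inhibitor that also takes part in Mmp2 activation, stood at −0.92 ± 0.25, or −0.64 without casein array 2, and Mmp14, the membrane protease of that step, at −0.28 ± 0.29, or −0.27. Timp1 stood at −1.51 ± 0.99 and rested on casein array 2, where it read 6.48 against 3.34 to 3.99 elsewhere, and stood at −0.06 without it.

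Receptors gave a mixed picture, with 8 of 11 lower and 4 of these at an unadjusted p under 0.05, and again 8 lower without casein array 2. They included Ddr2, the receptor kinase for fibrillar collagen, at −0.62 ± 0.19, Mrc2, which takes up collagen fragments, at −0.51 ± 0.14, and Antxr1 at −0.53 ± 0.14, which without that array stood at −0.62, −0.45 and −0.61. Another list held genes of TGF-beta signalling, a main inducer of collagen synthesis, and also the transcription factor genes Scx and Tcf21. Of its 15 genes 11 were lower and 4 higher with a median of −0.04, and 8 were lower without casein array 2. Tgfb1 itself stood at −0.67 ± 0.56 and rested on casein array 2, since it was −0.09 without it. The 1 member of that list at an unadjusted p under 0.05 in limma was Scx, a transcription factor of tendon cells. It stood at −0.84 ± 0.28, or −1.04 without casein array 2, and is counted again among the tendon markers below. None of the genes on these 5 lists passed the adjusted threshold of limma, in any comparison.

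Against casein, 11 of 18 processing genes and 11 of 16 breakdown genes were higher with dairy, where 50.6% of all genes and 70.4% of those above the median gene were. Lower with dairy were 6 and 5, which became 3 and 2 without casein array 2. Loxl1 stood at 0.45 ± 0.12, Loxl2 at 0.26 ± 0.09 and Ctsk, a collagen-cutting cathepsin, at 0.36 ± 0.15, which without casein array 2 were 0.35, 0.28 and 0.52. Antxr1 stood at 0.41 ± 0.14 and the integrin gene Itga11 at 0.26 ± 0.09, or 0.33 and 0.23 without that array. Against dairy, leucine had 17 of 18 processing genes lower and 15 of 16 breakdown genes lower, the latter with a median of −0.38, beside 48.5% of all genes lower. Mmp2 was then at −1.22 ± 0.14, Pcolce at −1.01 ± 0.15 and Loxl1 at −0.86 ± 0.12.

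**Figure D4:**
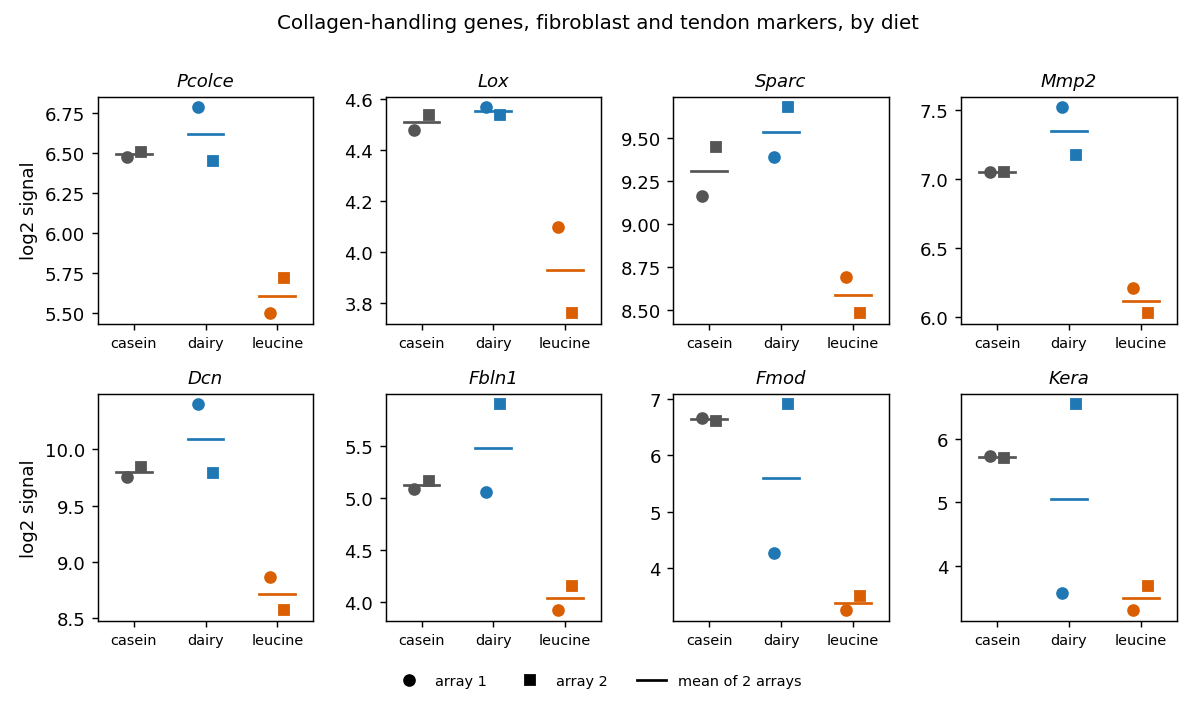
Log2 signal (vertical axis, its own scale in each panel) of genes that process or cut collagen (Pcolce, Lox, Sparc, Mmp2), of fibroblast markers (Dcn, Fbln1) and of tendon markers (Fmod, Kera) on the 2 arrays of each diet, with the bar at their mean. The first 6 are low on the leucine arrays alone, whereas Fmod and Kera, 2 of 7 tendon markers measured, are also low on dairy array 1, at 4.27 and 3.57. Dcn and Fbln1 are among the fibroblast markers with the largest leucine difference from casein, of 11 measured. Smoc2, not drawn, was higher with leucine than with casein.

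Markers of fibroblasts, which make most fibrillar collagen, were mostly lower with leucine and higher with dairy. The collagen genes did not share the second pattern as a set, since 16 of 25 had a lower mean with dairy than with casein. The 16 included 10 of the 12 at or below the median gene, where 63.8% of all such genes were lower. Above it 7 of 13 collagen genes were higher with dairy and 6 lower, or 8 lower without casein array 2. Both dairy arrays lay above both casein arrays in 4 of these 13 and below them in 3. Of 11 fibroblast markers measured 10 were lower with leucine than with casein and 10 lower than with dairy, and 10 were higher with dairy than with casein. Of all genes 49.1%, 48.5% and 50.6% were. Above the median gene, where 10 of the 11 markers lay, these shares were 41.3%, 56.1% and 70.4%. Without casein array 2, 9 were lower with leucine than with casein, with a median of −0.45 beside −0.47 with it. Lower with dairy than with casein was 1 marker, with that array or without it. Their median level was 5.66 and 5.60 on the casein arrays, 6.23 and 5.90 with dairy, and 5.14 and 5.27 with leucine. Dcn, the proteoglycan decorin, read 9.75 and 9.84 with casein, 10.4 and 9.79 with dairy, and 8.87 and 8.57 with leucine, and Fbln1, a matrix glycoprotein, stood at −1.09 ± 0.30 against casein, or −1.05 without casein array 2. These were among the largest differences on the list. Smoc2 went the other way, at 0.42 ± 0.19 against casein, or 0.23 without casein array 2. Lum stood at −0.08 ± 0.17, or −0.18 without that array. In bulk tissue fewer cells of a type and less RNA per cell cannot be told apart, and the part of fibroblast content in the collagen differences was not tested.

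Tendon markers varied between arrays of the same diet. Their median over 7 measured genes was 4.74 and 5.46 with casein, 3.96 and 5.24 with dairy, and 3.63 and 3.83 with leucine. Their median log2 fold change for leucine against casein was −0.64, or −0.89 without casein array 2, with 6 of 7 lower in either case. Fmod, a proteoglycan of tendon, read 6.67 and 6.61 with casein, 4.27 and 6.91 with dairy, and 3.24 and 3.50 with leucine, a log2 fold change of −3.27 ± 0.90 against casein, or −3.30 without casein array 2. Kera, another tendon proteoglycan, read 5.73 and 5.69, 3.57 and 6.54, and 3.30 and 3.68 in the same order. The list did not vary as one: 5 of 7 were lower on dairy array 1 than on dairy array 2, while Postn was at its highest of all arrays there, at 6.67, and Scx at 5.43 was above dairy array 2. On dairy array 1 Col1a1 at 9.10, Col3a1 at 8.12 and Col14a1 at 7.05 had their highest values of all 6 arrays, and Col12a1 at 4.82 and Col11a2 at 4.55 were low. Both leucine arrays lay below the other 4 in 2 tendon markers, Fmod and Comp, and Chodl was higher with leucine than with casein or dairy. The part of tendon content in the collagen differences was not tested.

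Macrophage markers were lower with leucine than with casein in 10 of 10, with a median of −0.54 that became −0.08, with 5 of 10 lower, without casein array 2. Beside the counts of this paragraph, 49.1% of all genes were lower with leucine than with casein and 46.3% lower with dairy than with casein. For leucine against dairy, 48.5% of all genes were lower, and 56.1% of those above the median gene. Markers of endothelium, the cells that line vessels and also make type IV collagen, were lower with leucine than with casein in 4 of 9 and higher in 5. Their median level ran from 5.86 to 6.20 over the arrays. Their median log2 fold change for leucine against casein was 0.25, which rounded to 0 without casein array 2, with 4 lower. Hepatocyte markers were lower than casein in 12 of 12 with either diet, with medians of −1.44 for leucine and −1.78 for dairy that became −0.41 and −0.79 without casein array 2. Adipocyte markers were lower with leucine than with casein in 6 of 8, Schwann cell markers in 6 of 6, smooth muscle and pericyte markers in 4 of 8 and satellite cell markers in 2 of 4, and without casein array 2 in 6, 6, 6 and 1. With leucine against dairy, endothelial markers were lower in 8 of 9, adipocyte markers in 8 of 8 and Schwann cell markers in 5 of 6. Smooth muscle and pericyte markers were lower in 5 of 8, satellite cell markers in 3 of 4 and hepatocyte markers in 1 of 12. The part of these cell types in the collagen values was not tested.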

How the data were processed

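Per the submitters' processing notes the authors made the deposited log2 signals with Affymetrix Expression Console, and the version, background correction, normalization and summarization: not given in the sources used here. Protocol texts among the labels name liver in the storage and extraction steps, while the tissue label is gastrocnemius. Of 29214 clusters 15310 had a single gene, with symbols updated through RefSeq, and the cluster with the highest mean was kept for each of 14506 genes. Values ran from 1.14 to 13.7. No filter on dim genes was used, and the number of arrays limits the precision.

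All 6 arrays entered 1 linear model on diet alone in limma 3.58.1 in R 4.3.3, leaving 3 residual degrees of freedom, with empirical Bayes moderation and Benjamini-Hochberg adjustment over all genes. The procedure was also run on simulated data with independent normal noise, in 5 runs with 200 changed genes each. Those data did not imitate the repeated values or the array that stood apart, and no result here rests on them. Fold changes are given with the model's SE. The members and lists were chosen with earlier results of these data known. Collagen genes above the median gene, the 5 with the smallest p in each comparison and partner chains of one molecule were named, with 2 genes per pathway list and some fixed names; others in the text were chosen after their values were seen. Promoter sequences are from RefSeq GRCr8, and motif searches covered 250 bases on both strands. Alternatives were other scalings, a dim-gene filter, the mean of all clusters, fits of 2 diets, other moderation, a replicate block and leaving out each array.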

Additional observations from a re-analysis of the deposited data

How the results depend on the processing

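No collagen gene passed the adjusted threshold of limma in any comparison under any alternative, with lowest adjusted p between 0.125 and 0.984. The labels number the arrays 1 and 2 in each diet. Differences between arrays 1 and 2 correlated across genes at 0.0865 (casein and dairy), 0.179 (casein and leucine) and 0.0536 (dairy and leucine). The level set for treating equal numbers as pairs was 0.1, which casein and leucine passed and the other pairs of diets did not. The main model used no pairs, and the replicate block was run as an alternative. With the replicate block 10, 6 and 8 collagen genes had an unadjusted p under 0.05 in leucine against casein, dairy against casein and leucine against dairy, beside 12, 4 and 7 without it. Over all genes these shares were 11.2%, 5.85% and 6.62% with the block and 9.61%, 4.8% and 5.7% without it. In leucine against casein the median of −0.33 became −0.24 after quantile normalization, −0.23 after a shift to a common median, which moved the median of all genes to 0.10, and −0.45 with only genes above the median gene, where 13 of 13 were lower. Leaving out single arrays gave 7 to 12 unadjusted calls, while 8.13% to 19.1% of all genes were called. In dairy against casein the filter on dim genes gave a median of 0.02, 2 unadjusted calls and 6 lower genes, and leaving out single arrays gave medians from −0.17 to −0.02, 3 to 6 unadjusted calls and 8 to 14 genes separated below casein, while 11.7% to 31.1% of all genes were, since 1 array is easier to separate. In leucine against dairy the median of −0.11 became −0.03 after quantile normalization, −0.04 after the shift and −0.55 with the filter, with 13 lower genes, and ran from −0.17 to −0.10 without single arrays. Signs turned for small differences. For dairy against casein, quantile normalization gave −0.05 for Col1a1, −0.10 for Col1a2 and −0.09 for Col4a1, and the shift gave 0.02 for Col4a3. Without single arrays Col1a1 ran from −0.24 to 0.36, Col1a2 from −0.38 to 0.42, Col4a1 from −0.06 to 0.09, Col4a3 from −0.13 to 0.10 and Col12a1 from −0.47 to 0.11. For leucine against dairy, quantile normalization and the shift gave 0.03 and 0.02 for Col5a3, 0.03 and 0.01 for Col11a2, and 0.01 and 0.03 for Col9a1, and without single arrays Col5a3 ran from −0.12 to 0.02, Col11a2 from −0.20 to 0.09 and Col8a1 from −0.10 to 0.28. The cause of these changes was not tested. For leucine against casein none of the 18 named collagen genes changed sign under any alternative. Of the other 7, Col17a1 did so after quantile normalization and after the shift, which left 23 lower, and Col23a1 without leucine array 1. The counts of genes with a lower mean and of separated genes were tried under these alternatives after seeing the data. Repeated values and signals near those of dim genes limit the 12 collagen genes at or below the median gene.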
